A study of Mus musculus with 4 samples.

Results

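SR proteins and heterogeneous nuclear ribonucleoproteins (hnRNPs) were followed through their genes in single cells of the postnatal mouse cerebellum. The members were all gene symbols that start with Srsf or Hnrnp and had at least 50 unique molecular identifiers (UMIs) over the 4 libraries of the series. All 31 symbols with these prefixes passed, 11 of them Srsf and 20 Hnrnp, out of 32285 genes in the files, of which 19925 had at least 50 UMIs. The libraries were made by droplet-based single-cell RNA sequencing from whole cerebella with the meninges removed. There was 1 library each from wild-type (WT) mice at postnatal day 10 (P10 WT), mice labelled Eftud2 cKO at day 10 (P10 cKO), WT mice at day 14 (P14 WT) and Eftud2 cKO mice at day 14 (P14 cKO). The product of Eftud2 is a GTPase that works in the spliceosome as part of its U5 particle. Purkinje cells are the deficient cells by the title of the series, while the labels give no Cre line, deleted exon, sex or number of animals.

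SR proteins bind pre-mRNA through RNA recognition motifs and recruit the spliceosome through domains rich in arginine and serine, which SRPK and CLK kinases phosphorylate. The hnRNPs coat nascent RNA and often act against SR proteins at the same exon, and they also take part in RNA export, stability and translation. In the developing cerebellum granule cell progenitors divide in the external granule layer, leave the cell cycle and mature into granule neurons, and a change of splicing regulators, such as the replacement of Ptbp1 by Ptbp2, is a known part of neuronal differentiation.

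The deposited libraries held 6719 to 16691 barcodes and 91091692 to 158017834 UMIs, and 6212 to 15055 cells per library were kept, with medians of 7743 to 12264 UMIs per cell. Any pair of libraries shared 12 to 83 barcodes, at most 0.744% of the smaller library. Levels are given as CPM (counts per 1000000), for which a gene's UMIs were added up within a cell group of 1 library and divided by all UMIs of that group. Where 4 levels are given, P10 WT comes first, then P10 cKO, then P14 WT and last P14 cKO, and where mature cells have 3 levels P10 WT is missing. UMIs count 3′ ends and are not scaled by gene length, so levels are compared for a gene between cell groups and not between genes. Eftud2 stood at 51.2, 55.6, 47.3 and 44.8 CPM over whole libraries. It was not lower in the P10 library labelled cKO. The deleted part is not known, 3′ ends were counted and whole libraries mix all cell types, so this level does not check the labels. The P10 WT library stood apart, since 41.4% to 64.9% of all genes differed from P10 cKO by at least 0.5 on the log2 scale, against 9.42% to 36.2% between the P14 libraries. The file headers name a different program version for P10 WT, for P10 cKO and for the P14 pair, so genotype at P10, age and program version cannot be told apart, and each stage and class result below was also computed without each library.

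Cells were assigned to 9 classes and to 5 stages of the granule lineage by counts of detected marker genes. Neither Purkinje cells, the deficient cells by the title, nor granule progenitors were among the 9 classes, and progenitors appear only as stages. Class sizes differed between libraries. Border macrophages numbered 1185, 116, 57 and 131 cells and fibroblasts 893, 94, 196 and 91 cells, so that P10 WT held the most of both. Cells gated as cycling progenitors carried 4612 to 6428 CPM of 10 S-G2-M markers over the 4 libraries, whereas in the intermediate and mature stages with at least 20 cells these markers summed to 10.9 to 84.4 CPM. Cells gated as mature carried 3623 to 4299 CPM of 7 mature granule markers in the 3 libraries with at least 20 such cells, and cycling progenitors 32.7 to 228 CPM. P10 WT held only 4 mature cells and gave no mature profile. The intermediate cells of P10 WT went partly against their name, with 6567 CPM of newborn markers against 2847 to 3931 CPM in the other libraries. The neutrophil genes S100a8 and S100a9 reached 610.0 and 760 CPM in newborn and 497 and 676 CPM in mature cells of P14 cKO, and the 8 blood leukocyte markers summed to 1380 and 1187 CPM there against at most 244 CPM in any stage of the other libraries. Of the lymphocyte markers, Cd3e and Nkg7 were at 0 in those mature cells, while Cd79a had 22 UMIs, or 7.58 CPM. The part of leukocyte RNA in the member values was not tested.

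Nearly all SR protein and hnRNP genes were lower in granule neurons than in dividing progenitors. In mature granule neurons against cycling progenitors, 28 of the 31 members were lower and only Srsf12 was higher at an adjusted p under 0.05 (edgeR quasi-likelihood test with the library as a block, Benjamini-Hochberg over 12867 genes). Over all genes tested, 28.8% were lower and 25.7% higher. The median log2 difference was -0.86 over the members and -0.04 over all genes. Of the SR protein genes 10 of 11 were lower, with a median of -0.99, and of the hnRNP genes 18 of 20 were lower, with a median of -0.82. The intermediate stage, which every library held, gave the same picture, with 30 members lower and Srsf12 higher, beside 34.2% and 31% of all genes. Summed over the 20 hnRNP genes, cycling progenitors held 12432, 9279, 9875 and 10299 CPM. The mature cells held 4002, 5024 and 5180 CPM. Summed over the 11 SR protein genes, cycling progenitors held 3874, 2868, 3310 and 3066 CPM and mature cells 1369, 1822 and 1540 CPM. For either family the groups did not overlap. These are shares of all UMIs of a group, and depth differed too: the median cycling progenitor held 13339 to 22140 UMIs and the median mature cell 6983 to 11599 in the 3 libraries with a mature profile. With cells thinned to 2000 UMIs, 25 of 30 tested members were lower in mature cells, with a median of -0.92 over the members.

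**Figure D1:**
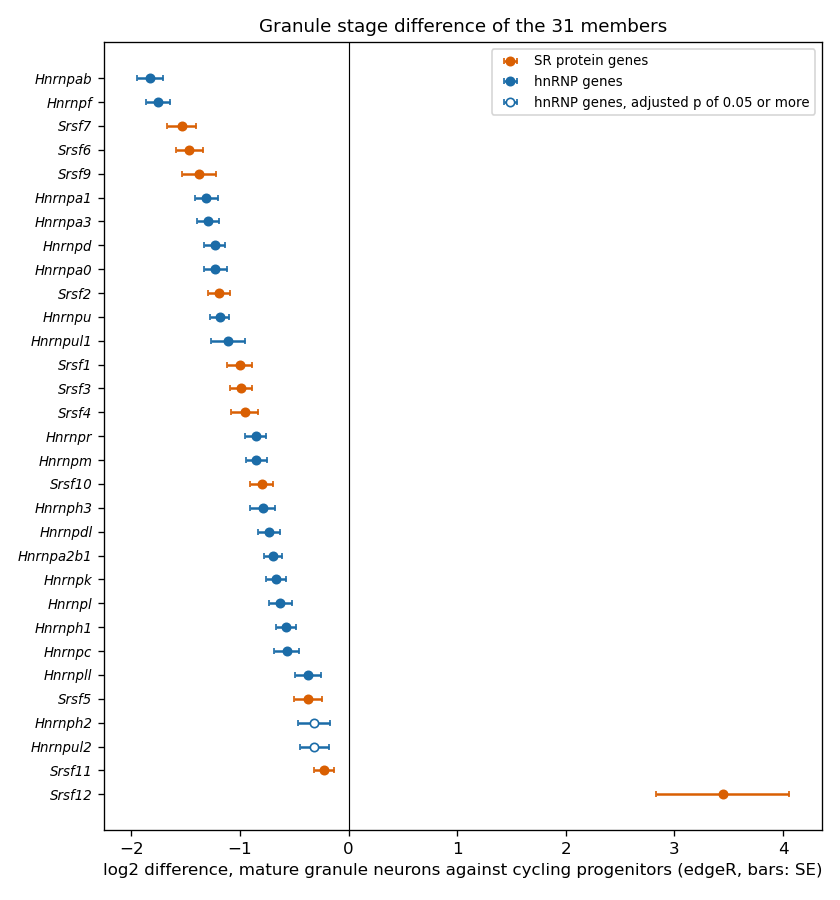
Log2 difference between mature granule neurons and cycling progenitors for the 31 members (x axis), with bars for the SE of the edgeR fit; filled points passed an adjusted p of 0.05. All points lie below 0 apart from Srsf12 at 3.45, and the open points are Hnrnph2 and Hnrnpul2.

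Among the hnRNP genes Hnrnpab and Hnrnpf showed the largest differences between mature and cycling cells. Hnrnpab, whose product binds DNA and RNA and takes part in mRNA transport, stood at 920, 664, 684 and 722 CPM in cycling progenitors and at 184, 185 and 186 CPM in mature cells. The 2 groups did not overlap, and the log2 difference was -1.83 ± 0.12 (SE, edgeR adjusted p = 1.5e-10). Hnrnpf, which binds runs of G, was at 496, 363, 460 and 448 CPM in cycling progenitors and at 100, 175 and 117 CPM in mature cells. Its groups did not overlap either (-1.75 ± 0.11, edgeR adjusted p = 7.1e-11). Hnrnpa1, a repressor of exon inclusion, differed by -1.31, Hnrnpa3 by -1.29 and Hnrnpa0 by -1.23, while Hnrnpa2b1, another member of the A/B family, differed by -0.70. The RNA-stability factor Hnrnpd differed by -1.23 and its relative Hnrnpdl by -0.74. The nuclear scaffold protein gene Hnrnpu differed by -1.19 and its relative Hnrnpul1 by -1.11. The KH-domain gene Hnrnpk differed by -0.67, Hnrnpm by -0.85 and Hnrnpr by -0.86.

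Members that changed least were found in the same families as those that changed most. Hnrnph1 and Hnrnph3, which share their G-run binding with Hnrnpf, differed by -0.58 and -0.79, and Hnrnph2 by -0.32 ± 0.15 (SE, edgeR adjusted p = 0.073). Hnrnpul2 had 177, 145, 122 and 142 CPM in cycling progenitors and 90.7, 109 and 124 CPM in mature cells. Its groups overlapped, and it did not pass the test (-0.31 ± 0.14, edgeR adjusted p = 0.056). Hnrnpc, which binds runs of U on nascent transcripts, differed by -0.57, Hnrnpl, which binds CA repeats, by -0.63, and Hnrnpll by -0.37 ± 0.12 (SE, edgeR adjusted p = 0.010). Hnrnpll did not pass without P14 WT (-0.34, edgeR adjusted p = 0.067) or P14 cKO (-0.39, 0.11).

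Of the SR protein genes Srsf7, Srsf6 and Srsf9 were the most reduced. Srsf7, whose product serves as an adaptor for mRNA export, was at 591, 436, 482 and 428 CPM in cycling progenitors and at 158, 120 and 146 CPM in mature cells, groups that did not overlap (-1.54 ± 0.14, SE, edgeR adjusted p = 7.4e-09). Srsf6 went from 201, 145, 183 and 171 CPM to 55.8, 65.5 and 56.8 CPM, a log2 difference of -1.47 ± 0.13. Srsf9 went from 199, 117, 163 and 170 CPM to 39.5, 60.0 and 60.6 CPM, a log2 difference of -1.38 ± 0.16. The groups of either gene were apart in every library. Srsf2, the nuclear speckle protein gene, differed by -1.19, Srsf1 by -1.0, the export adaptor gene Srsf3 by -0.99, Srsf4 by -0.96 and Srsf10 by -0.80. The smallest differences that passed the test were those of Srsf5 (-0.37 ± 0.13, edgeR adjusted p = 0.021) and Srsf11 (-0.23 ± 0.09, edgeR adjusted p = 0.042). Srsf11 stood at 358, 301, 354 and 306 CPM in cycling progenitors and at 253, 284 and 253 CPM in mature cells, so that its groups were close but did not overlap. Srsf11 did not pass without P10 WT (-0.20, edgeR adjusted p = 0.10), P14 WT (-0.19, 0.23) or P14 cKO (-0.30, 0.082). Srsf5 did not pass without P10 WT (-0.29, edgeR adjusted p = 0.059) or P10 cKO (-0.30, 0.15).

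Srsf12, a relative of Srsf10, was the only member that was higher in mature cells. It was the least abundant member, with 782 UMIs in all. Cycling progenitors had 11, 9, 10 and 8 UMIs, or 0.229, 0.338, 0.355 and 0.739 CPM. Mature cells had 3, 0 and 33 UMIs, or 6.98, 0 and 11.4 CPM, where a count of 0 in P14 WT allows up to 16.4 CPM. The groups overlapped through P14 WT, and most of these UMIs came from P14 cKO. The log2 difference was 3.45 ± 0.61 (SE, edgeR adjusted p = 7.4e-05), and 3.65 ± 1.40 (adjusted p = 0.047) without P14 cKO. With every cell thinned to 2000 UMIs, Srsf12 was too sparse to enter the test.

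**Figure D2:**
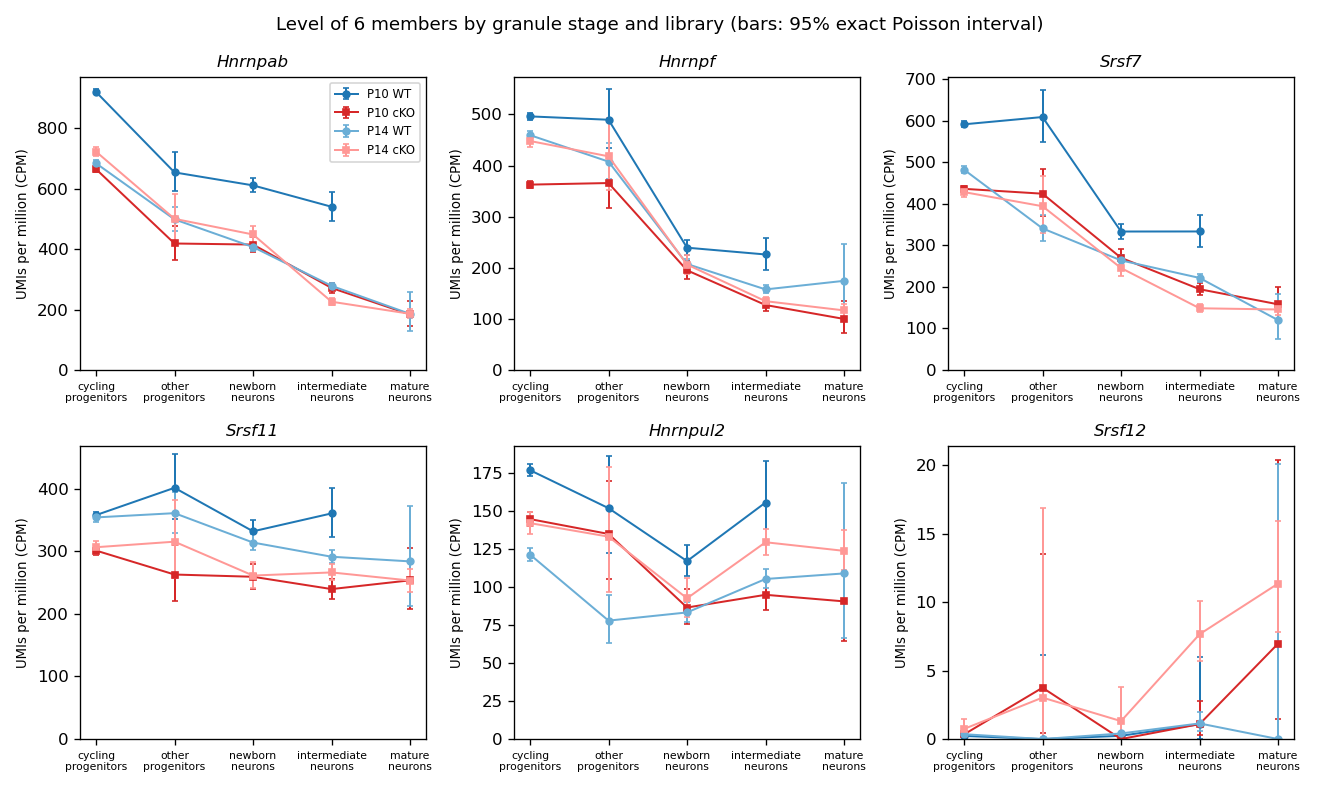
Level in CPM (y axis, from 0) of 6 members over the 5 granule stages (x axis) in each library, with 95% exact Poisson intervals. Hnrnpab, Hnrnpf and Srsf7 are lower in intermediate and mature neurons than in cycling progenitors in every library shown, Srsf11 and Hnrnpul2 differ less, and Srsf12 reaches 7.66 and 11.4 CPM in the intermediate and mature neurons of P14 cKO.

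The reduction was spread over the steps of the lineage and differed between members. Between cycling and other progenitors, which carry Atoh1 but few cycle markers, 24 members were lower and 0 higher, beside 13% and 3.09% of all genes. Hnrnpa3 (-0.72) and Hnrnpul1 (-0.72) differed most here, while Hnrnpf (-0.24, edgeR adjusted p = 0.055), Hnrnpa1 (-0.15) and Hnrnpc (0.01) did not pass. Between other progenitors and newborn neurons 12 members were lower and 1, Hnrnph1, higher, beside 13% and 14.7% of all genes, and Hnrnph1 did not pass when any library was left out. Hnrnpf had its largest step here (-0.88 ± 0.09, SE, edgeR adjusted p = 3.6e-07), from 490, 366, 408 and 418 CPM to 239, 195, 207 and 206 CPM. From newborn to intermediate neurons 14 members were lower and 2, Srsf12 and Hnrnpul2, were higher, beside 16.5% and 17.6% of all genes. Srsf9 (-0.58), Hnrnpa1 (-0.58) and Hnrnpab (-0.55) differed most at that step. From intermediate to mature neurons only Hnrnph3 (-0.56), Hnrnpab (-0.54), Hnrnpa1 (-0.43) and Hnrnpa0 (-0.41) were lower and 0 members higher, beside 3.21% and 5.18% of all genes. Averaged over libraries, 26 members had their highest stage in cycling progenitors, 4 (Hnrnpa1, Hnrnpc, Srsf11 and Srsf5) in other progenitors and 1 (Srsf12) in mature neurons. The counts at the middle steps were sensitive to single libraries and to the fitting method. Between cycling and other progenitors the count was 13 without P10 WT and 14 without P14 WT, and it was 15 with the size factors of DESeq2 and 14 with thinned cells. Between other progenitors and newborn neurons the lower count was 7 without P10 WT, 4 with no filter on low counts, 5 with thinned cells, 6 with a stricter marker gate and 20 with DESeq2. Between newborn and intermediate neurons the lower count was 8 without P14 WT and the higher count 0 without P14 cKO, and at the last step the count was 2 without P10 cKO and 1 without P14 WT.

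The direction was also seen within single libraries. In all 3 libraries with mature cells, 30 of 31 members were lower there than in the cycling progenitors of their own library. In intermediate cells 28 of 31 were lower in all 4 libraries. The share of all genes lower in every library by this measure was not computed. Levels of mature and cycling cells did not overlap for 26 members, all lower, beside 25.8% of all genes lower and 17.5% higher. For intermediate against cycling cells 19 members did not overlap and were lower and 1, Srsf12, was higher, beside 17% and 12.4% of all genes.

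The promoters of 3 members lower in mature than in cycling cells are shown as hand-picked examples, each with matches to a different motif. They are the 250 bases before the start annotated by RefSeq (GRCm38.p6), written 5′ to 3′ on the gene's strand, with motif matches on either strand in capitals. Srsf1 lies at chr11:88047123-88047372 (plus strand) and its capitals mark an E2F match, Srsf7 at chr17:80207306-80207555 (minus strand) with an ETS match, and Hnrnpab at chr11:51606882-51607131 (minus strand) with CCAAT box matches.
Srsf1: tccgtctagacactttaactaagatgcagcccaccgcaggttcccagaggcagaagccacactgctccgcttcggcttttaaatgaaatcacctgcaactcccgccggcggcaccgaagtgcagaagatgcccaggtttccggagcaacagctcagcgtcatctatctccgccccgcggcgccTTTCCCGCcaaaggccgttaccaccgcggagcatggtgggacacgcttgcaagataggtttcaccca
Srsf7: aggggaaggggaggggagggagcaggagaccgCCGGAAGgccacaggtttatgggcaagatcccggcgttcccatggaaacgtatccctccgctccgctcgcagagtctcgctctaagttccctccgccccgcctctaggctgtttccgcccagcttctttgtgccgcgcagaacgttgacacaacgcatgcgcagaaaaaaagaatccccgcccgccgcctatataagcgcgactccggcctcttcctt
Hnrnpab: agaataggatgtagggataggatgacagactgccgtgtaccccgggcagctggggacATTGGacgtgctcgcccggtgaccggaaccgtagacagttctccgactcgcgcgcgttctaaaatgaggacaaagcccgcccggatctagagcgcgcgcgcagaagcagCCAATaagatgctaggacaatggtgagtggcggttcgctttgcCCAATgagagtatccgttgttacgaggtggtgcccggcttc
RefSeq promoters were at hand for 29 of the 31 members. The E2F letters TTTCCCGC or TTTGGCGC occurred in 3 of 29 member promoters (Srsf1, Srsf10 and Hnrnpul1) and in 1.35% of all 27025 promoters. The ETS core CCGGAAG occurred in 6 of 29 (Hnrnpd, Hnrnpf, Srsf4, Srsf5, Srsf7 and Srsf11) and in 7.05% of all. The CCAAT box occurred in 15 of 29 and in 34.5% of all, the TATA box TATAAA in 3 of 29 and in 13% of all, and the NRF1 palindrome in 0 of 29 and in 0.781% of all. The promoters of members also had more G and C, with a median of 65.2% against 52.0%, and the part of base composition in these shares was not tested. The ETS core occurred in Srsf7, among the most reduced SR protein genes, and in Srsf11, among the least reduced. Srsf6 and Srsf9, also among the most reduced, held none of these motifs. The part of the motifs in the stage difference was not tested.

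The other genes of the splicing-factor network gave a mixed picture. Of 12 hnRNP genes with other symbols, 10 were lower and 1 higher in mature than in cycling cells, with a median of -0.76. Over all genes tested in this comparison, 28.8% were lower and 25.7% higher. The lowest was Ptbp1, the repressor of neuronal exons, from 75.6, 73.6, 85.6 and 68.0 CPM in cycling cells to 20.9, 16.4 and 8.26 CPM, and Raly was the next, from 195, 129, 153 and 145 to 48.8, 81.8 and 54.4 CPM. Ralyl, a relative of Raly, was higher, from 5.78, 107, 42.0 and 52.7 CPM to 1172, 1222 and 1056 CPM. Ptbp2 did not pass (edgeR adjusted p = 0.43). Of 17 SR-related proteins 11 were lower and 1, Sfswap, was higher, with a median of -0.40. Of 12 tested kinases, phosphatases and importins that act on SR proteins and hnRNPs, 4 were lower and 2 higher, Clk1 and Clk4. These counts were near the shares of all genes. The kinase gene Clk4 went from 51.8, 53.8, 48.9 and 49.7 CPM to 79.1, 70.9 and 65.1 CPM.

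Across cell classes most members were highest in neurons or in oligodendrocyte precursors, and the class with the lowest level varied. By the mean of the 4 libraries, granule neurons held the highest level of 11 members, GABAergic interneurons of 8, oligodendrocyte precursors of 7, microglia of 3, and border macrophages and endothelial cells of 1 each. Astroglia held the lowest level of 13 members, oligodendrocytes of 7 and border macrophages of 6. The shares of all genes highest or lowest in each class were not computed. Against macroglia (astroglia and oligodendrocytes), neurons had 24 members higher and 3 lower, beside 34.8% and 33.2% of 15551 genes (edgeR, adjusted p under 0.05). The median was 0.64 over the members and 0.01 over all genes. Against immune and vascular cells (microglia, border macrophages, endothelial cells and fibroblasts), neurons had 23 members higher and 5 lower, beside 40.4% and 36.9% of all genes, with medians of 0.42 and 0.03. Oligodendrocytes differed widely in depth, with a median of 1862 UMIs per cell in P14 cKO and of 7507 to 38588 in the other libraries, and the part of depth in their values was not tested.

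**Figure D3:**
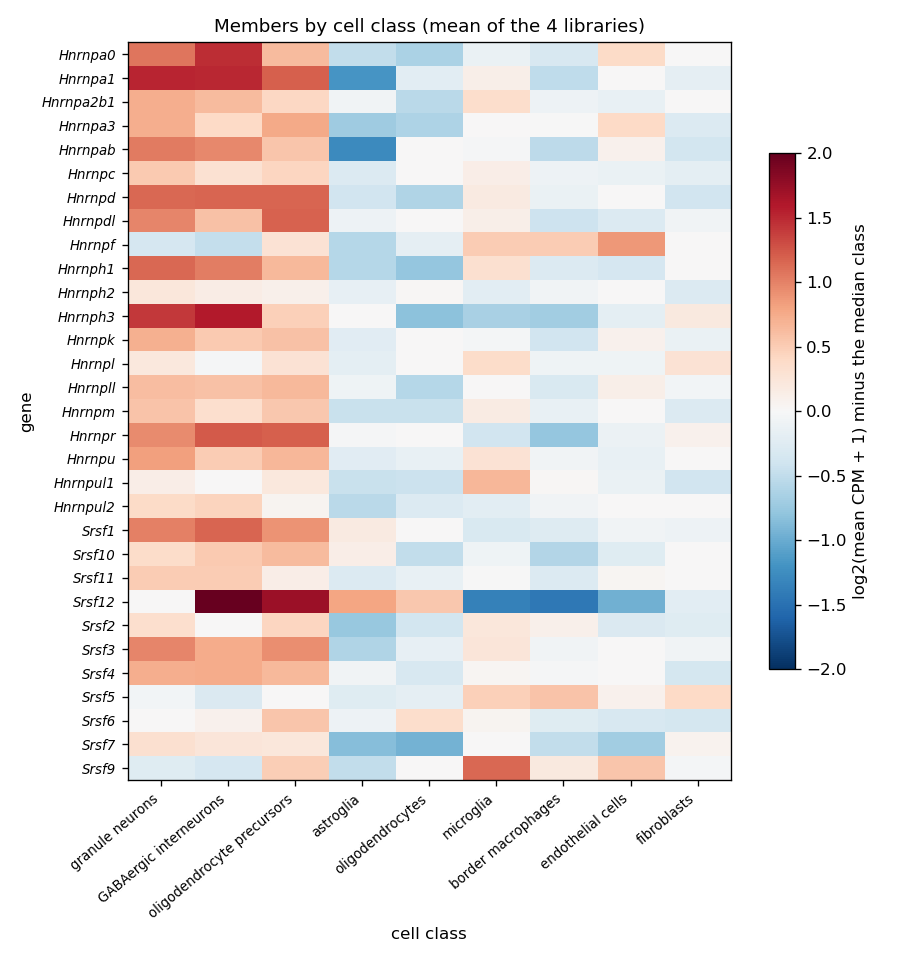
Mean level over the 4 libraries of each member (rows) in the 9 cell classes (columns), as log2(CPM + 1) minus the member's median class; the colour scale ends at 2 and -2. Most rows are red in the 3 columns on the left, and Srsf9, Hnrnpf, Srsf5 and Hnrnpul1 are red in immune or endothelial columns.

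Hnrnpa1, Hnrnph3, Hnrnpa0 and Hnrnph1 had the largest differences between neurons and macroglia, while their relative Hnrnph2 passed in neither class comparison. Hnrnpa1 had 989, 542, 605 and 498 CPM in granule neurons and 130, 85.0, 92.9 and 95.9 CPM in astroglia. The groups were far apart, and neurons exceeded macroglia by 1.98 ± 0.11 (SE, edgeR adjusted p = 1.6e-16). Hnrnpa0, which has no intron in the annotation, had 773, 497, 409 and 350 CPM in granule neurons and 230, 193, 138 and 122 CPM in astroglia, and neurons exceeded macroglia by 1.60 ± 0.08. Hnrnph1 had 315, 204, 254 and 249 CPM in granule neurons and 64.3, 50.4, 82.9 and 67.6 CPM in oligodendrocytes, and neurons exceeded macroglia by 1.57 ± 0.09. Neither pair of groups overlapped. Hnrnph3 had 237, 235, 196 and 235 CPM in GABAergic interneurons and 25.2, 44.9, 52.2 and 45.2 CPM in oligodendrocytes. Neurons exceeded macroglia by 1.79 ± 0.12 and immune and vascular cells by 1.70 ± 0.10, and Hnrnph3 was 1 of 2 members whose highest class stood at least 3 times above the median class. Hnrnph3 overlaps Rufy2 on the other strand. Hnrnpr (1.16 ± 0.06 above immune and vascular cells) and Hnrnpa1 (1.40 ± 0.09) were next in that comparison.

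Srsf12 was the other member whose highest class was at least 3 times the median class. It had 13.7, 5.29, 9.08 and 11.8 CPM in GABAergic interneurons and 7.70, 6.90, 9.71 and 8.0 CPM in oligodendrocyte precursors. In microglia it had 0, 0, 0 and 0.346 CPM, from 2 UMIs in all, and in border macrophages 1 UMI in all. Interneurons and precursors overlapped and both lay above microglia in every library. Neurons exceeded immune and vascular cells by 3.44 ± 0.46 (SE, edgeR adjusted p = 5.1e-08).

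A minority of members ran the other way. Hnrnpf had 505, 380, 418 and 405 CPM in endothelial cells and 249, 151, 183 and 156 CPM in granule neurons, groups that did not overlap. Neurons were below immune and vascular cells by -1.14 ± 0.06 and below macroglia by -0.28 ± 0.07. Srsf9 had 264, 175, 212 and 232 CPM in microglia, where it was highest, against 126, 59.8, 78.2 and 69.8 CPM in granule neurons, again without overlap, with log2 differences of -1.03 ± 0.07 and -0.29 ± 0.08. Srsf5 had 291, 232, 388 and 327 CPM in border macrophages and 253, 126, 135 and 168 CPM in interneurons. These groups overlapped through the P10 WT interneurons, and neurons lay below immune and vascular cells by -0.79 ± 0.09. Hnrnpul1 had 139, 130, 110 and 117 CPM in microglia and was the only member whose lowest value in its highest class lay above all values of all other classes. It was 0.31 ± 0.07 above macroglia in neurons and -0.19 ± 0.06 against immune and vascular cells. Hnrnpl was lower in neurons than in immune and vascular cells by -0.25 ± 0.07 (edgeR adjusted p = 0.0020), but not with cells thinned to 2000 UMIs, where the log2 difference was 0.0096 (edgeR adjusted p = 0.99). Srsf6 was lower in neurons than in macroglia by -0.31 ± 0.07.

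Genotype could be compared at P14 with libraries of the same program version, as a description of 2 libraries with no replicate. None of the cell groups compared was one of Purkinje cells. Most member values differed by less than 0.5 on the log2 scale. In 14 cell groups 424 member values could be compared, each with at least 50 UMIs over both libraries, and 410 of them lay within 0.5 on the log2 scale, with 5 past it upward and 9 downward in P14 cKO. With cells thinned to 2000 UMIs 11 were past it upward and 28 downward, and with the stricter marker gate 15 were past it downward. The granule neuron class shares cells with the newborn, intermediate and mature stages. In the granule lineage the counts past 0.5 were 0 of 30 members in cycling progenitors, 2 of 30 in other progenitors, 0 of 30 in newborn, 2 of 31 in intermediate and 3 of 30 in mature neurons, and 1 of 31 in the granule neuron class. The shares of all genes past 0.5 were 10.8%, 19.7%, 10.9%, 22%, 36.2% and 18.9% in the same order. In the other classes the counts were 0 of 31 in interneurons, 1 of 30 in astroglia, 0 of 31 in oligodendrocyte precursors, 1 of 30 in oligodendrocytes, 2 of 30 in microglia, 2 of 30 in border macrophages, 0 of 30 in endothelial cells and 0 of 30 in fibroblasts. All genes stood at 10.6%, 16.4%, 9.42%, 20.2%, 16.5%, 22.4%, 17.2% and 17.4%. The members' share was below that of all genes in each of the 14 groups.

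**Figure D4:**
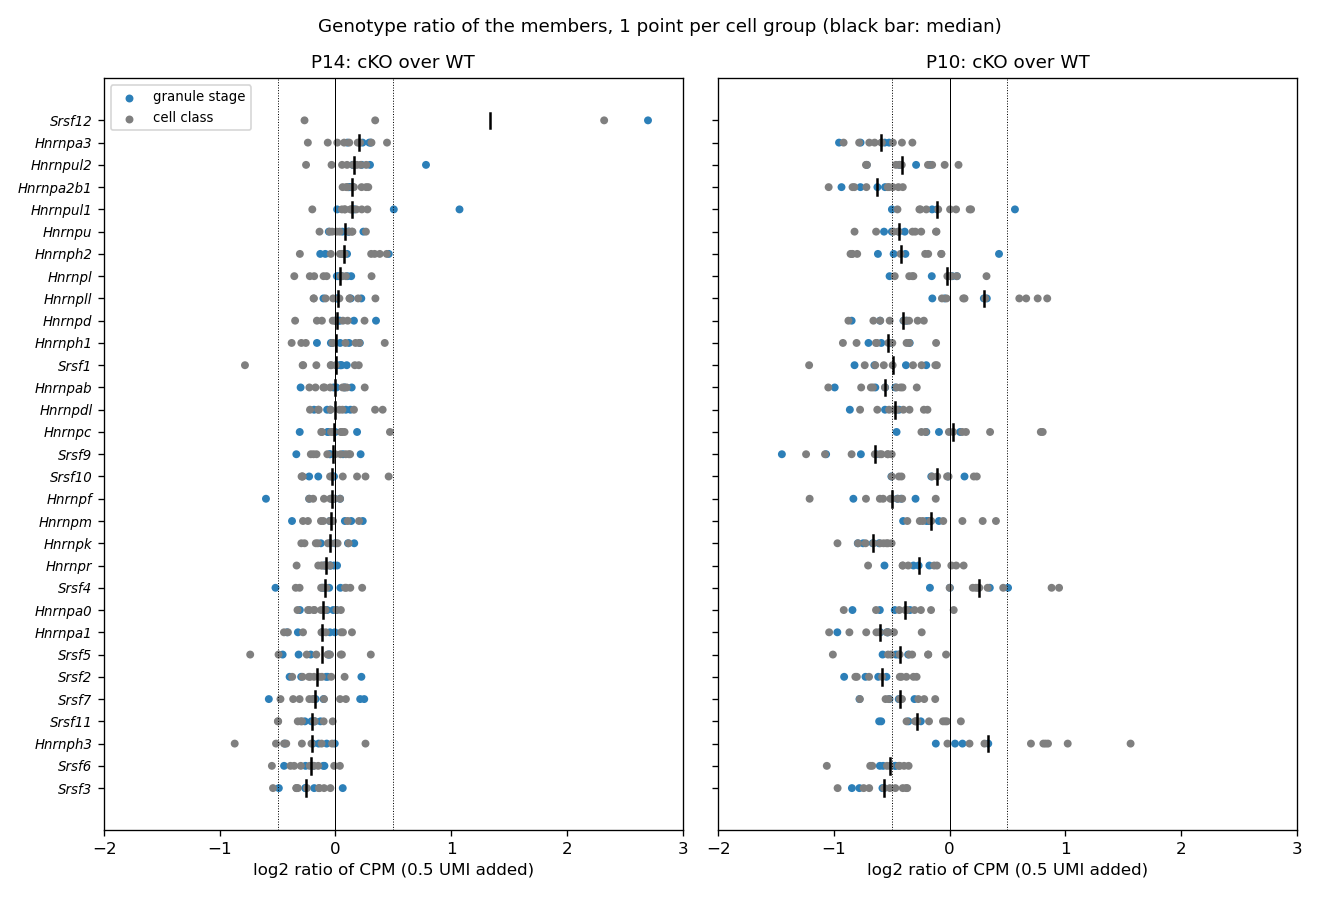
Log2 ratio of cKO over WT (x axis) for each member (rows), 1 point per cell group, with the median as a black bar and dotted lines at 0.5 and -0.5. At P14 most points lie between the dotted lines and the farthest are those of Srsf12, whereas at P10 most members lie to the left; Srsf12 had too few UMIs at P10.

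The largest P14 ratios belonged to Srsf12. In intermediate neurons its level was 1.14 CPM in WT and 7.66 CPM in cKO, from 12 and 51 UMIs, a log2 ratio of 2.70 with a 95% counting interval of 1.82 to 3.79. In the granule neuron class it stood at 0.924 and 4.65 CPM, a ratio of 2.32 (1.86 to 2.83). The P14 cKO value lay above the WT value in either group. In interneurons (0.34, -0.54 to 1.40) and oligodendrocyte precursors (-0.27, -1.17 to 0.58) the intervals included 0. The mature granule markers also differed between the profiles of the intermediate stage, with 553 CPM in WT against 1829 CPM in cKO, and their part in the Srsf12 values was not tested.

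Several SR protein genes were lower in P14 cKO in most cell groups. Over all 31 members, the median over cell groups was above 0 for 12 and below 0 for 19. The share of all genes on 1 side of 0 in as many groups was not computed, here or for the hnRNP genes below. Srsf11 was below 0 in 14 of 14 groups, with 10 counting intervals wholly below 0. Its ratio was -0.21 in cycling progenitors, -0.19 in other progenitors, -0.26 in newborn neurons, -0.10 in interneurons, -0.19 in oligodendrocyte precursors, -0.50 in microglia and -0.49 in border macrophages. Srsf3 was below 0 in 13 of 14 groups, at -0.18 in cycling progenitors, -0.26 in newborn, -0.49 in mature and -0.34 in all granule neurons, -0.34 in astroglia and -0.54 in oligodendrocytes. Srsf6 was below 0 in 13 of 14 groups, at -0.19 in other progenitors, -0.44 in intermediate and -0.36 in all granule neurons, -0.15 in oligodendrocyte precursors and -0.55 in border macrophages. Srsf7 went from 222 to 149 CPM in intermediate neurons (-0.58, -0.69 to -0.47), from 245 to 176 CPM in all granule neurons (-0.48) and by -0.17 in cycling progenitors. Srsf5 went from 380 to 228 CPM in microglia (-0.74, -0.84 to -0.64), by -0.46 in other progenitors and by -0.49 in fibroblasts. Srsf1 differed by -0.78 in border macrophages, from 79 UMIs, and by -0.17 in interneurons and 0.17 in microglia. Srsf4 differed by -0.52 in mature neurons, -0.31 in astroglia and 0.13 in oligodendrocytes, Srsf9 by 0.22 in newborn neurons and Srsf10 by 0.46 in fibroblasts. These ratios come from the same 2 libraries, so the cell groups are not replicates of one another.

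The hnRNP genes were divided. Hnrnpa2b1 was above 0 in 14 of 14 groups, with a median of 0.15 and 10 intervals wholly above 0, at 0.15 in astroglia and 0.28 in oligodendrocyte precursors. Hnrnpa3 was above 0 in 12 of 14, at 0.21 in cycling progenitors, 0.29 in newborn, 0.30 in intermediate and 0.19 in all granule neurons, 0.45 in interneurons and 0.31 in microglia. Hnrnpul2 was above 0 in 12 of 14, at 0.23 in cycling and 0.78 in other progenitors, 0.30 in intermediate and 0.22 in all granule neurons and 0.27 in astroglia. Hnrnpul1 was above 0 in 13 of 14, at 0.17 in cycling and 0.50 in other progenitors, 1.07 in mature neurons (0.04 to 2.65), 0.14 in oligodendrocytes and 0.28 in endothelial cells. Hnrnph3 was below 0 in 13 of 14, from 67.4 to 36.8 CPM in microglia (-0.87, -1.12 to -0.62), from 97.0 to 67.7 CPM in astroglia (-0.51), and by -0.19 in newborn neurons, -0.44 in intermediate neurons and -0.43 in fibroblasts. Hnrnph2 differed by 0.46 in mature neurons, 0.44 in interneurons, 0.38 in astroglia, 0.31 in border macrophages and 0.34 in endothelial cells, and Hnrnph1 by 0.21 in newborn neurons, 0.43 in border macrophages and -0.38 in fibroblasts. Hnrnpf differed by -0.60 in mature neurons (-1.11 to -0.01). The remaining leading values were those of Hnrnpa1 (-0.45 in oligodendrocytes, -0.41 in endothelial cells), Hnrnpl (-0.36 in oligodendrocytes, 0.31 in fibroblasts), Hnrnpdl (0.41 in endothelial cells, 0.34 in fibroblasts), Hnrnpll (0.35 in oligodendrocyte precursors, 0.20 in microglia), Hnrnpu (0.26 in oligodendrocyte precursors, 0.15 in oligodendrocytes), Hnrnpm (0.24 in other progenitors, -0.11 in interneurons), Hnrnpr (-0.34) and Hnrnpk (-0.29) in endothelial cells, Hnrnpc (0.47 in border macrophages) and Hnrnpd (0.35 in mature neurons).

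At P10 most members were lower in cKO, with the P10 WT library standing apart as described. Of 390 member values in 13 cell groups, 16 were past 0.5 upward and 150 downward. The members' median ran from -0.84 in interneurons to -0.22 in fibroblasts, whereas the median of all genes ran from -0.13 to 0.09. The counts past 0.5 were 8 of 30 in cycling progenitors, 15 in other progenitors, 12 in newborn and 23 in intermediate neurons and 18 in all granule neurons, beside 52.4%, 61.6%, 53.7%, 64.7% and 60.4% of all genes. They were 21 in interneurons, 13 in astroglia, 15 in oligodendrocyte precursors, 6 in oligodendrocytes, 10 in microglia, 10 in border macrophages, 10 in endothelial cells and 5 in fibroblasts, beside 64.9%, 49.2%, 53.3%, 48.9%, 50.6%, 47.8%, 41.4% and 44.2%. The members' share lay above that of all genes in intermediate neurons and interneurons and below it in the other 11 groups. The direction differed, since in cycling progenitors 4784 of all genes were past 0.5 upward and 2589 downward, against 0 and 8 members. Hnrnpk and Srsf9 were at or below -0.50 in 13 of 13 groups, and Hnrnpa1 in 11. Hnrnph3 (median 0.33), Hnrnpll (0.30), Srsf4 (0.26) and Hnrnpc (0.03) were the members with a median above 0. Their genes are 67.0%, 64.5%, 87.3% and 85.9% non-exonic by length, while Hnrnpf and Srsf9, also at 88.0% and 72.0%, had medians of -0.50 and -0.65. The labels and headers do not say if intronic reads entered the counts, and the part of such reads in these ratios was not tested.

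Between P10 and P14 the libraries of the 2 genotypes moved differently. In WT 25 of 31 members had a median below 0 over the cell groups, and in cKO 12 of 31. The share of all genes with such a median was not computed. Within cell groups, the members' median ran from -0.71 to -0.03 in WT and from -0.16 to 0.24 in cKO. The median of all genes ran from -0.18 to 0.10 in WT and from -0.15 to 0.03 in cKO. Of all genes, 39.1% to 60.7% differed by at least 0.5 in WT and 15.1% to 39.0% in cKO. Hnrnpa0 was lower at P14 in 13 of 13 groups in WT (median -0.66) and in 14 of 14 groups in cKO (median -0.34). Hnrnpa2b1 was lower at P14 in WT (median -0.39) and higher in cKO (median 0.50), and Srsf9 likewise (-0.45 and 0.34). Both the WT and the cKO comparison share their P10 library with the genotype ratios at P10 and mix age with program version.

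Over both ages no member passed a test of genotype. In a model with age and genotype, fitted in each of 13 cell groups with 1 residual degree of freedom, edgeR called 0 members and so did DESeq2, and no member had an unadjusted p under 0.05 for genotype in edgeR with the filter on low counts. Without that filter 1 member did, in intermediate neurons. DESeq2 gave an adjusted p to only 5 members in oligodendrocytes and 26 in intermediate neurons. Over all genes edgeR called 0.0092% in interneurons and 0% in the other 12 groups, whereas DESeq2 called up to 72 genes (of 12267 in granule neurons), and 42 of 2559 in intermediate neurons. For age edgeR called 0.0276% of all genes in interneurons and 0.0161% in microglia. It called 0 members for age, and 1 member had an unadjusted p under 0.05 in edgeR (in endothelial cells). With this design only very large differences could pass, so these fits do not show that members were alike between genotypes.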

How the data were processed

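Each of the 4 deposited matrices holds UMI counts per gene and cell, which the authors made with Cell Ranger: per the file headers, P10 WT was made with version 5.0.0, P10 cKO with 7.0.1 and the P14 pair with 7.1.0. Per the submitters' processing notes, the build was mm10 and the tools were Seurat 4.1.3 and Cell Ranger 3.0.2. Whether intronic reads were counted is not given in the sources used here. Cells with at least 500 genes and at most 20% mitochondrial UMIs were kept, and Scrublet scores above 0.25 (through Scanpy 1.11.5) marked 1.52% to 3.19% of them as doublets, which were removed.

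A cell was given the class with the highest share of its markers detected (at least 0.4, at least 3 markers, a margin of 0.2 over the next class). The granule lineage needed at least 2 markers instead of 3. Granule stages were set by cycle markers (at least 4 of 10 for cycling progenitors), Atoh1, Nhlh1, Cntn2, Grin2b and mature markers (at least 3 of 7). The thresholds were set after cell numbers were seen. The members and lists were chosen with earlier results of these data known.

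Counts were summed per cell group and library, with at least 20 cells, and 9 classes and 5 stages were compared with edgeR 4.0.16 (TMM, quasi-likelihood test, the library as a block, adjusted p under 0.05 over all genes tested). DESeq2 1.42.0 was an alternative. The test was checked on simulated data. Genotype ratios within an age compare 1 library with 1 library, so they carry no p-value, and their 95% intervals (exact, conditional on the summed UMIs, with 0.5 UMI added to each count for the ratio itself) cover counting error only, as do the Poisson intervals and the limit of 3 counts for a count of 0. Nothing says that the libraries came from separate animals, so p-values measure the spread between these libraries and stage profiles, which may be technical. TMM scaling shifted P10 ratios by over 0.1 on the log2 scale in other progenitors (-0.17), interneurons (0.10), microglia (-0.12), endothelial cells (-0.15) and fibroblasts (-0.13), and no P14 ratio by as much.

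Genes named with full values were the 5 members with the largest and the 5 with the smallest called difference between mature and cycling cells, the 4 largest and 4 smallest called differences of each class comparison, the 3 highest and 3 lowest P14 ratios of each cell group, the leading genes of the other lists and members whose highest class was at least 3 times the median class. Long-read libraries were not analysed here. R 4.3.3 and Python 3.11.15 (pandas 2.3.3, NumPy 2.4.6, SciPy 1.17.1, matplotlib 3.10.9) were used.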

Additional observations from a re-analysis of the deposited data

Results flagged for a closer look

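Hnrnph3 had genotype ratios of opposite sign at the 2 ages in astroglia and in microglia. In astroglia its log2 ratio of cKO over WT was -0.51 at P14 (97.0 to 67.7 CPM) and 1.56 at P10 (33.6 to 99.7 CPM). In microglia it was -0.87 at P14 (67.4 to 36.8 CPM) and 0.81 at P10 (31.1 to 54.3 CPM). The difference between the ages was not tested, since each age and genotype has 1 library. P10 WT held the lowest Hnrnph3 level of the 4 libraries in either class, and its program version differs from those of the other libraries.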

How the results depend on the processing

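No paired analysis was possible because each group has 1 library and the labels give no replicate numbers. Members lower in mature than in cycling cells numbered 25 to 30 under all 12 alternatives. Thinning cells to 2000 UMIs, an alternative chosen after seeing the data, left Srsf12 untested, so 0 members were higher in mature or in intermediate against cycling cells. It also gave 14 members lower in other against cycling progenitors, 5 lower and 0 higher in newborn neurons, 1 higher from newborn to intermediate and 1 lower from intermediate to mature neurons, and 3 lower in neurons against immune and vascular cells. There Hnrnpl turned from -0.25 to 0.0096 (edgeR adjusted p = 0.99). Thinning gave 11 P14 ratios past 0.5 upward and 28 downward, against 5 and 9, and a stricter gate 15 downward. DESeq2's size factors in edgeR (RLE) gave 15 members lower in other against cycling progenitors and 0 higher in newborn neurons. In newborn neurons no filter on low counts gave 2 higher and 4 lower, DESeq2 0 higher and 20 lower, and the stricter gate 0 higher and 6 lower. DESeq2 gave 4 higher from newborn to intermediate neurons. Leaving out each library in turn gave 13 to 24 lower in other against cycling progenitors, 7 to 11 lower and 0 to 0 higher in newborn neurons, 8 to 15 lower and 0 to 2 higher from newborn to intermediate neurons, and 1 to 4 lower from intermediate to mature neurons. The other 188 counts lay within 1.5 times the reported ones. Causes of these changes were not tested. Thinning lowered the UMIs per cell and the number of genes tested, and it left out cells under 2000 UMIs. Few cells limit mature neurons (25 in P14 WT) and other progenitors (25 in P14 cKO).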
